A study of Mus musculus with 4 samples.

Results

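Collagen chain genes were examined in RNA of the tibialis anterior, a muscle at the front of the shin, taken from C57BL/6 mice at postnatal day 21. The Nf1-KO group (genotype Nf1flox/flox/Myf5+) carried 2 floxed alleles of Nf1 and the Het group (Nf1flox/+/Myf5+) carried 1, so both groups carried Myf5+ and at least 1 floxed allele, and no group without one was analysed here. From what is known of the study rather than from the labels, Myf5+ stands for a Cre recombinase made in the Myf5 lineage of muscle precursors, so that other cells of the muscle keep their alleles. Each group had 2 libraries, and nothing says that they came from separate animals, so p-values measure only the spread between these libraries. Genes were taken by name as those with Col, a type number, the letter a and a chain number. Of 45 matching rows, 1 (Col4a3bp, which encodes a ceramide transfer protein) is not a collagen chain, and Col6a4 and Col26a1 were listed at 0 in all 4 libraries. The remaining 42 chains, of 18959 names above 0 in some library, were 11 fibrillar chains, 8 basement membrane chains (types IV, XV and XVIII) and 23 others. Just inside that limit, Col10a1 was listed at 0.01 RPKM in 1 Nf1-KO library and at 0 in the others, and Col6a5 at 0.01 RPKM in each library.

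Collagens are built from chains that wind into a triple helix, and the types differ in what the helices then form. Fibrillar collagens pack into the cables that carry force between muscle fibres, fascicles and tendon, and FACIT collagens sit on the surface of those cables. Type IV collagen forms the sheet-like network of the basement membrane that wraps each muscle fibre and capillary, while type VI forms beaded filaments that link this sheet to the fibrils. In muscle, fibrillar collagen is made mainly by fibroblasts of the connective tissue, and type IV chains are made by several cell types.

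RefSeq promoter sequences (mouse build GRCm38.p6, matched by symbol) were found for 34 of the 42 chains. The deposited values were made on mm9 per the submitters' processing notes, so these positions are not positions in the authors' build. The sequences below show the 150 bases before the start site of 3 chains that were higher in Nf1-KO (Col1a2, Col3a1 and Col11a1) and of 1 that was lower (Col15a1), as examples of chains that moved in each direction, chosen after their values were seen. Capitals mark matches on either strand to the CCAAT box (CCAAT), the GC box (GGGCGG), the TATA box (TATAAA) and the AP-1 motif (TGANTCA), with no overlap between matches in these windows.
Col1a2 (chr6:4505468-4505617, plus strand): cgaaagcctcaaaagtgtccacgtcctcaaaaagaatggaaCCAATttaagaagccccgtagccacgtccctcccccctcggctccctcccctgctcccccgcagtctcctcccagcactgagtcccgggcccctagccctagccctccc
Col3a1 (chr1:45311388-45311537, plus strand): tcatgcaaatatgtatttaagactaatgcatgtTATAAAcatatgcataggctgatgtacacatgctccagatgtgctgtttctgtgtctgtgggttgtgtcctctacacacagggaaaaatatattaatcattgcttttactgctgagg
Col11a1 (chr3:114030390-114030539, plus strand): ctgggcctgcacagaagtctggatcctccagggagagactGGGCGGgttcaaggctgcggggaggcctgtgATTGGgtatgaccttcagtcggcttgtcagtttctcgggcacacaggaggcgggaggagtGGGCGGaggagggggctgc
Col15a1 (chr4:47207862-47208011, plus strand): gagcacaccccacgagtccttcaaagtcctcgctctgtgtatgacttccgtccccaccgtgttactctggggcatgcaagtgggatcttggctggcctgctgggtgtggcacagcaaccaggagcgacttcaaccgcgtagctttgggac
Col1a2 held CCAAT from -109 to -105 and Col11a1 held it on the other strand from -79 to -75, counted from the start site. Over the 250 bases before the start sites of all 32851 promoters in the table, the CCAAT box letters were present in 33.8%, those of the GC box in 32.7%, those of the TATA box in 12.4% and those of the AP-1 motif in 6.7%. These letters are common, and a match is a description of the sequence and not a site. Other chains that were lower held them too. Col4a2 held CCAAT from -32 to -28, and Col4a1 held it on the other strand from -145 to -141. Col20a1, which was higher, held no match in its 150 bases. The examples therefore do not set higher chains apart from lower ones by these letters.

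The main pair of type IV chains is arranged head to head. In RefSeq, the start sites of Col4a1 (minus strand) and Col4a2 (plus strand) lie 21 bases apart on chromosome 8, and the first exons share the 22 bases from one start site to the other. That stretch is shown because both chains fell, with GGGCGG in capitals.
Col4a1 and Col4a2 (chr8:11312805-11312826, plus strand): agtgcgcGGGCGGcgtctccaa
The only other head-to-head pair of chains within 2000 bases in the table, Col4a6 and Col4a5 on chromosome X, had start sites 1343 bases apart. Further pairs with no protein-coding gene between them were Col3a1 with Col5a2, Col6a2 with Col6a1, Col4a4 with Col4a3, Col9a1 with Col19a1 and Col6a6 with Col6a5. No promoter sequence was found for Col4a3 or Col5a2, so whether their pairs are head to head was not examined.

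The values deposited were read as RPKM, a read density per gene length and library depth, so levels of different chains can be set side by side. Estimated depth was 36500000 to 58100000 reads per library and did not separate the groups, and replicates lay close together (median coefficient of variation 2.03% for Het and 1.91% for Nf1-KO, over genes with a mean of 5 RPKM or more). Nf1 was 1.09 and 1.01 RPKM in Het and 0.89 and 0.85 RPKM in Nf1-KO. The groups did not overlap, with a log2 fold change of -0.18 (standard error 0.057, limma adjusted p 0.041), but the call was lost in each fit that left out a library (limma adjusted p 0.057 to 0.18), with no scaling (0.094), with no filter on low values (0.074) and with a replicate block (0.056). In a whole muscle, a change in the number of cells of a type and a change in RNA per cell cannot be told apart. Markers listed for other cell types moved between the groups in part, and their values stand after the results.

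Fibrillar chains rose and basement membrane chains fell in Nf1-KO muscle. The test was limma on log2(RPKM + 1), run over 10690 genes of at least 0.5 RPKM in at least 2 libraries, with a Benjamini-Hochberg adjusted p under 0.05 as the threshold. Of the 42 chains, 22 could be tested and 17 passed, 10 higher and 7 lower in Nf1-KO, where 50.3% of all tested genes passed (24.9% higher and 25.4% lower). Among 7 fibrillar chains tested, 6 were higher, 0 lower and 1 did not pass, with a median log2 fold change of 0.44. All 4 basement membrane chains tested were lower, with a median of -0.67. Of the 11 other chains tested, 4 were higher, 3 lower and 4 did not pass, with a median of -0.07. The median over all genes tested was 0.00. Larger changes, past the threshold and over 0.5 on the log2 scale in either direction, were found in 9 of the 22 tested chains and in 9.75% of all tested genes. In the values as deposited, the groups did not overlap in 18 of the 22 chains, against 77.3% of all tested genes, so separation of the groups alone does not mark out collagens. These counts hold only chains that reached the filter: 5 of the 22 (Col11a1, Col12a1, Col16a1, Col20a1 and Col23a1) did so only through the Nf1-KO libraries and had to differ, while 0 did so only through Het.

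**Figure D1:**
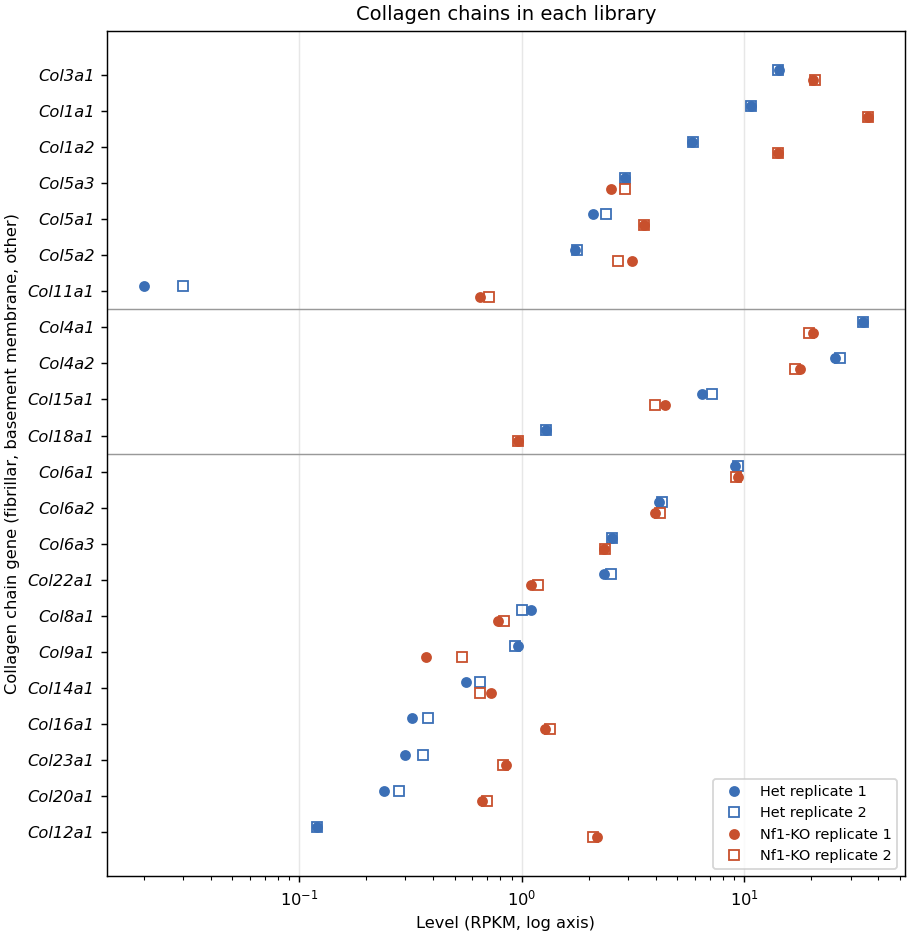
Level of each of the 22 tested collagen chains in each library, in RPKM on a log axis, with Het in blue and Nf1-KO in red, replicate 1 filled and replicate 2 open. Lines separate fibrillar, basement membrane and other chains. Col1a1 sits at 10.7 RPKM in both Het libraries and near 36 RPKM in both Nf1-KO libraries, while the 4 basement membrane chains sit further left in Nf1-KO.

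The type I chains, which form the bulk of tendon and of the connective tissue of muscle, rose most among the abundant chains. Col1a1 was 10.70 and 10.69 RPKM in Het and 35.85 and 36.07 RPKM in Nf1-KO. Both Nf1-KO libraries lay far above both Het libraries, at 3.36 times the Het mean, with a log2 fold change of 1.57 (standard error 0.028, limma adjusted p 4.9e-07). Col1a2, the other chain of the same molecule, was 5.82 and 5.89 RPKM in Het and 14.17 and 14.22 RPKM in Nf1-KO. Its log2 fold change was 1.06 (standard error 0.035, limma adjusted p 4.1e-06). The ratio of Col1a1 to Col1a2 went from 1.84 and 1.81 (Het) to 2.53 and 2.54 (Nf1-KO). The ratios did not overlap, but 2 libraries against 2 are too few for an exact permutation test to reach 0.05, and none was run.

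Type III and type V chains rose less. Col3a1, the chain of the fine reticular fibrils around muscle fibres, was 14.27 and 14.16 RPKM in Het and 20.40 and 20.76 RPKM in Nf1-KO. The groups were separate, and the log2 fold change was 0.41 (standard error 0.030, limma adjusted p 9.9e-05). Col5a1 and Col5a2 make the type V collagen that starts fibrils and sets their width. Col5a1 was 2.08 and 2.39 RPKM in Het and 3.53 RPKM in each Nf1-KO library, a log2 fold change of 0.42 (standard error 0.063, limma adjusted p 0.0022). Col5a2 was 1.74 and 1.78 RPKM in Het and 3.13 and 2.70 RPKM in Nf1-KO, a log2 fold change of 0.44 (standard error 0.068, limma adjusted p 0.0025). Their ratio was 1.20 and 1.34 in Het and 1.13 and 1.31 in Nf1-KO, overlapping between the groups. Col5a3, another chain of type V that can take part in the same molecule, did not follow them. It was 2.91 RPKM in each Het library and 2.52 and 2.92 RPKM in Nf1-KO, a log2 fold change of -0.14 that did not pass (limma adjusted p 0.11). Without Nf1-KO replicate 2 it was -0.21 and just under the threshold (limma adjusted p 0.05 after rounding).

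Col11a1 showed the largest relative difference of the fibrillar chains, from a level close to 0. This chain of type XI collagen is best known from cartilage fibrils. It was 0.02 and 0.03 RPKM in Het and 0.65 and 0.71 RPKM in Nf1-KO, and its log2 fold change of 0.69 (standard error 0.057, limma adjusted p 0.00018) is held down by the pseudocount. With a pseudocount of 0.1 it was 2.59. The authors' deposited table gave it 4.62 on the log2 scale (standard error 0.42, mean normalised count 119). Col2a1, the main fibrillar chain of cartilage and a chain of the same family, was between 0 and 0.02 RPKM in all 4 libraries. The remaining fibrillar chains were low. Col11a2 was 0.33 and 0.34 RPKM in Het and 0.27 and 0.34 RPKM in Nf1-KO, Col24a1 was 0.38 and 0.40 against 0.24 and 0.32 RPKM, and Col27a1 did not exceed 0.04 RPKM.

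The FACIT chains, which attach to fibrils and do not form them, moved in both directions. Of 9 chains, 6 were tested, 3 were higher and 2 lower, where 24.9% of all tested genes were higher and 25.4% lower. The 3 higher ones, Col12a1, Col16a1 and Col20a1, reached the filter only through Nf1-KO and had to differ. Col12a1, a FACIT of type I fibrils in tendon and muscle fascia, was 0.12 RPKM in each Het library and 2.19 and 2.10 RPKM in Nf1-KO. It stood 29th and 30th among the 42 chains by level in the Het libraries and 13th in both Nf1-KO libraries. Its log2 fold change was 1.45 with the pseudocount of 1 (standard error 0.056, limma adjusted p 7.1e-06) and 3.28 with 0.1. The authors' deposited table gave 4.07 (standard error 0.16, mean normalised count 615). Col14a1, a FACIT closely related to Col12a1, did not share this difference, at 0.56 and 0.65 RPKM in Het and 0.73 and 0.65 RPKM in Nf1-KO. Its log2 fold change was 0.04 (limma adjusted p 0.65) and turned to -0.0071 without Het replicate 1.

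Col16a1, a FACIT found in several connective tissues, was 0.32 and 0.38 RPKM in Het and 1.27 and 1.34 RPKM in Nf1-KO, a log2 fold change of 0.73 (limma adjusted p 0.00015). Col20a1 was 0.24 and 0.28 RPKM in Het and 0.66 and 0.70 RPKM in Nf1-KO, a log2 fold change of 0.39 (limma adjusted p 0.0022). Both are low genes, for which a pseudocount of 0.1 gave 1.56 and 1.04.

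The FACIT chains that fell included the one known from the junction of muscle and tendon. Col22a1, the chain of the myotendinous junction, was 2.34 and 2.53 RPKM in Het and 1.10 and 1.18 RPKM in Nf1-KO. The Nf1-KO mean was 0.468 times the Het mean, with a log2 fold change of -0.74 (standard error 0.059, limma adjusted p 0.00015). Col9a1, a chain of the cartilage FACIT type IX, was 0.96 and 0.93 RPKM in Het and 0.37 and 0.54 RPKM in Nf1-KO, a log2 fold change of -0.46 (limma adjusted p 0.0027). Its partner chains Col9a2 and Col9a3 did not exceed 0.11 RPKM in any library.

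The basement membrane chains fell. Col4a1 and Col4a2 form the type IV molecule found in nearly all basement membranes and were the 2 most abundant chains in both Het libraries. Col4a1 was 34.13 and 34.07 RPKM in Het and 20.34 and 19.44 RPKM in Nf1-KO, a log2 fold change of -0.84 (standard error 0.032, limma adjusted p 7e-06). Col4a2 was 25.48 and 26.90 RPKM in Het and 17.84 and 16.87 RPKM in Nf1-KO, a log2 fold change of -0.66 (standard error 0.042, limma adjusted p 5.9e-05). The Nf1-KO means were 0.583 and 0.663 times the Het means. The ratio of Col4a1 to Col4a2 was 1.34 and 1.27 in Het and 1.14 and 1.15 in Nf1-KO. Their first exons share sequence on opposite strands, as shown above, and the sources used here do not say whether reads were counted by strand.

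The other 4 type IV chains, which form the basement membranes of more specialised tissues, were all under the filter. Col4a4 was 0.19 and 0.21 RPKM in Het and 0.07 and 0.10 RPKM in Nf1-KO, and was also lower in the authors' deposited table (log2 fold change -1.37, adjusted p 0.0033). Col4a3 and Col4a5 were between 0.14 and 0.21 RPKM with overlapping groups, and Col4a6 did not exceed 0.04 RPKM. Col15a1 links basement membranes of muscle fibres and capillaries to the matrix outside. It was 6.45 and 7.19 RPKM in Het and 4.40 and 3.95 RPKM in Nf1-KO, a log2 fold change of -0.67 (standard error 0.068, limma adjusted p 0.00039). Col18a1, from which the fragment endostatin is cut, was 1.29 and 1.28 RPKM in Het and 0.96 RPKM in each Nf1-KO library, a log2 fold change of -0.27 (standard error 0.054, limma adjusted p 0.007).

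Type VI collagen was the abundant group for which no difference passed. Loss of its chains in people causes muscular dystrophy. Col6a1 was 9.11 and 9.32 RPKM in Het and 9.41 and 9.20 RPKM in Nf1-KO. Col6a2 was 4.13 and 4.26 RPKM in Het and 3.98 and 4.16 RPKM in Nf1-KO, and in both genes the groups overlapped. Their log2 fold changes were -0.07 and -0.11, with standard errors of 0.037 and 0.048 and limma adjusted p of 0.15 and 0.098. Col6a1 was 0.01 in the fit without scaling, so no direction is given for it. Col6a3 was 2.54 RPKM in each Het library and 2.35 and 2.37 RPKM in Nf1-KO, which was close to the threshold (log2 fold change -0.14, limma adjusted p 0.053). It passed in the fit without a variance trend (0.025) and narrowly with a pseudocount of 0.1 (0.05 after rounding), and the authors' deposited table called it lower (log2 fold change -0.21, adjusted p 0.024). The log2 differences of the 3 type VI chains lay between -0.14 and -0.07, closer to 0 than those of any called fibrillar or basement membrane chain. Col6a6 was 0.27 RPKM in each Het and 0.24 RPKM in each Nf1-KO library.

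Among the remaining chains, Col8a1 fell and Col23a1 rose. Col8a1, a short chain of vessel walls and other sheets, was 1.10 and 1.00 RPKM in Het and 0.78 and 0.83 RPKM in Nf1-KO. Its log2 fold change of -0.23 (limma adjusted p 0.019) missed the threshold with no filter on low values (0.051) and without Het replicate 1 (0.069), Nf1-KO replicate 1 (0.09) or Nf1-KO replicate 2 (0.052). Col8a2, the other chain of type VIII, stood the other way at a low level, at 0.03 and 0.02 RPKM in Het and 0.38 RPKM in each Nf1-KO library. It was under the filter here, and the authors' deposited table gave it 4.16 on the log2 scale (standard error 0.65). Col23a1, a chain anchored in the cell membrane, was 0.30 and 0.36 RPKM in Het and 0.85 and 0.82 RPKM in Nf1-KO, a log2 fold change of 0.43 (limma adjusted p 0.0014).

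In all, 20 chains were under the filter, with no library above 0.40 RPKM. Of these, 16 were in the authors' deposited table, which called 4 of them at an adjusted p under 0.05, where 31.7% of all its genes were called. Col8a2 and Col25a1 were higher, and Col4a4 and Col7a1 lower. Col25a1, a membrane chain needed for motor innervation in the embryo, was 0.02 and 0.01 RPKM in Het and 0.05 and 0.07 RPKM in Nf1-KO. Col7a1, the anchoring fibril chain of skin, was 0.37 and 0.33 RPKM in Het and 0.23 and 0.20 RPKM in Nf1-KO. Col13a1, a membrane chain of the neuromuscular junction, was 0.12 and 0.20 RPKM in Het and 0.27 and 0.36 RPKM in Nf1-KO and was not called there (adjusted p 0.14). Col28a1 was 0.24 and 0.20 RPKM in Het and 0.26 and 0.31 RPKM in Nf1-KO. Col19a1 lay between 0.09 and 0.13 RPKM, and Col17a1 did not exceed 0.06 RPKM. Over all chains, the authors' deposited table called 12 higher and 10 lower of 38 (57.9%). By class it called 6 of 10 fibrillar chains, all higher, and 5 of 8 basement membrane chains, all lower. Of 20 other chains it called 11, with 6 higher and 5 lower.

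**Figure D2:**
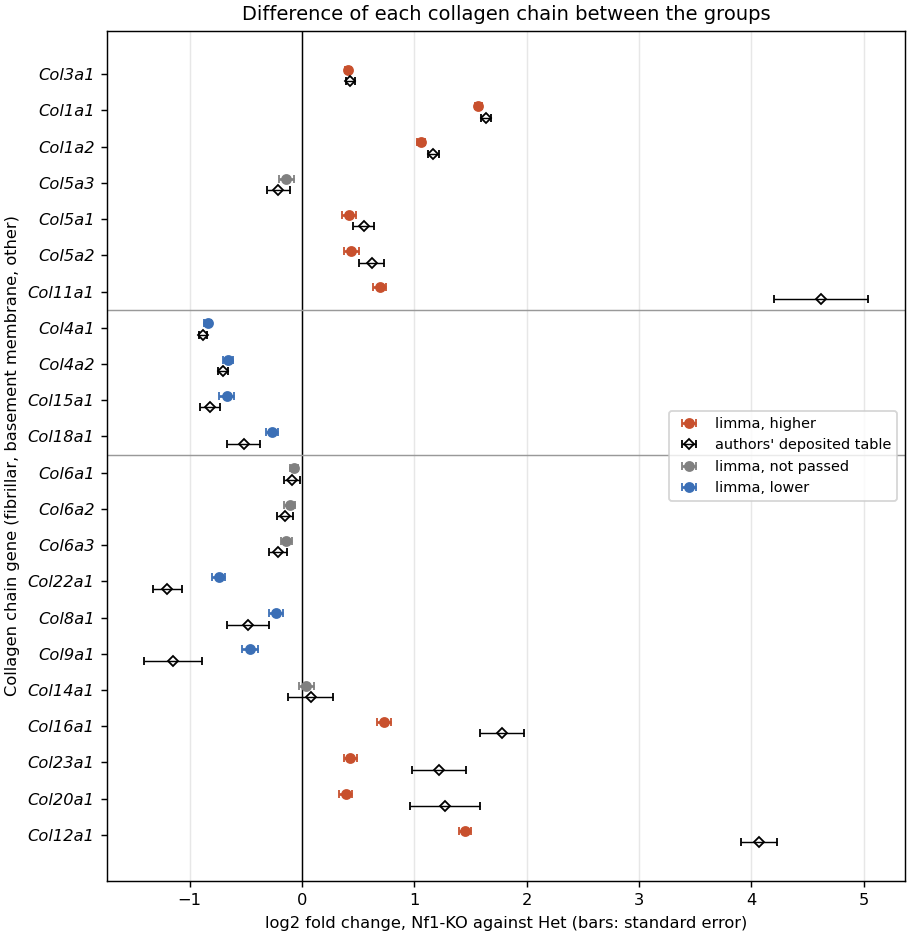
Log2 fold change of Nf1-KO against Het for the 22 tested chains. Filled circles are the limma fit on log2(RPKM + 1), coloured by call, open diamonds the authors' deposited table, bars 1 standard error. The circles of the 6 fibrillar chains that rose lie between 0.41 and 1.57 and those of the 4 basement membrane chains between -0.84 and -0.27, and the diamonds of low genes such as Col11a1 (4.62) and Col12a1 (4.07) lie much further out than their circles.

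The make-up of collagen RNA turned over between the groups. Summed over the 42 chains, collagen was 129 and 132 RPKM in Het and 150.2 and 149 RPKM in Nf1-KO, a smaller relative difference than in the fibrillar and basement membrane sums. All sums here are of values as deposited. For these, the median over all tested genes was 0.07 and not 0.0 on the log2(RPKM + 1) scale, which understates low genes. The factors that would have scaled the sums were 0.969 and 0.967 for Het and 1.03 for each Nf1-KO library. Fibrillar chains summed to 38.3 and 38.6 RPKM in Het and 80.8 and 81.6 RPKM in Nf1-KO, and basement membrane chains to 67.9 and 70.1 against 44.0 and 41.6 RPKM. Fibrillar chains held 29.6% and 29.2% of the sum in Het and 53.8% and 54.8% in Nf1-KO. Basement membrane chains held 52.6% and 53.0% in Het and 29.3% and 28.0% in Nf1-KO. The share of the other chains stayed between 16.9% and 17.8% in all 4 libraries. Col1a1 alone went from 8.3% and 8.1% to 23.9% and 24.2%, and from the 4th rank among chains to the 1st. Col4a1 went from 26.4% and 25.8% to 13.5% and 13.0%. The ratio of Col1a1 to Col4a1 was 0.314 in each Het library and 1.76 and 1.86 in Nf1-KO. With both type I chains left out, the fibrillar share was still 19.0% to 19.3% in Het and 30.7% to 31.7% in Nf1-KO. These shares are descriptions of 4 libraries, and no test was made of them.

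**Figure D3:**
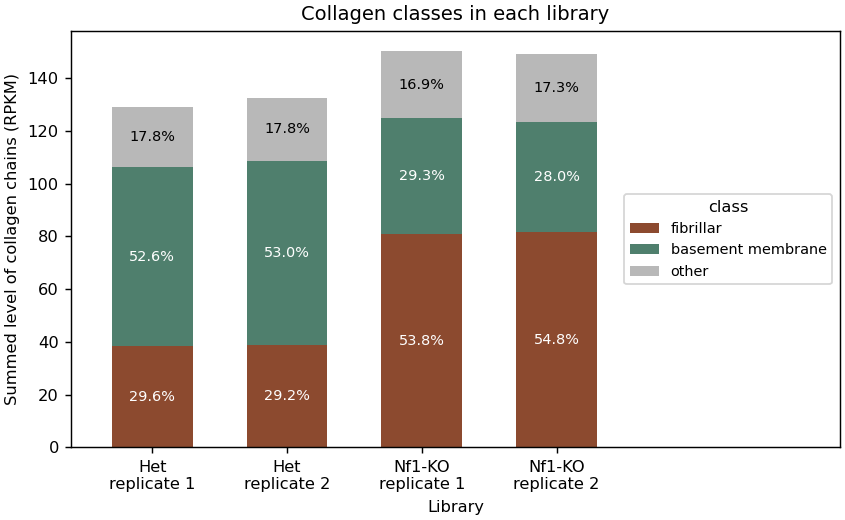
Summed RPKM of the collagen chains in each library, split into fibrillar, basement membrane and other chains, with each class's percent of the sum printed in its segment. The fibrillar segment is the largest in both Nf1-KO libraries (53.8% and 54.8%) and the basement membrane segment in both Het libraries (52.6% and 53.0%).

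Among genes that process collagen inside the cell, some were higher and some lower, and the share that passed was near that of all genes. New chains are hydroxylated on proline and lysine, folded by chaperones and then secreted. Of 20 genes on the list for these steps, 17 were tested, 6 were higher and 2 lower, and their median on the log2 scale was 0.07. These 8 calls stand beside 50.3% of all tested genes called. P4ha1, a catalytic subunit of the prolyl 4-hydroxylase that makes the helix stable, was 8.94 and 8.71 RPKM in Het and 4.17 and 4.04 RPKM in Nf1-KO. It fell by 1.02 on the log2 scale (standard error 0.042, limma adjusted p 9.6e-06), opposite in sign to the type I chains. P3h4, a partner in a lysyl hydroxylation complex, was 1.35 and 1.43 RPKM in Het and 4.59 and 4.37 RPKM in Nf1-KO, a log2 fold change of 1.13. Fkbp10, a collagen chaperone, and Crtap, a part of the prolyl 3-hydroxylase complex, had log2 fold changes of 0.54 and 0.39. Serpinh1, the collagen chaperone HSP47, did not pass (limma adjusted p 0.75), and its log2 value of -0.02 was 0.07 without scaling.

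Outside the cell, propeptides are trimmed and fibrils cross-linked. On the list for these steps 6 of 13 genes were tested, 4 were higher and 0 lower, with a median of 0.21, where 24.9% of all tested genes were higher and 25.4% lower. Lox, the lysyl oxidase that cross-links fibrils, was 0.51 and 0.48 RPKM in Het and 1.53 and 1.73 RPKM in Nf1-KO, a log2 fold change of 0.77 (standard error 0.062, limma adjusted p 0.00016). Pcolce, which speeds the trimming of the C-terminal propeptide, Adamts2, which cuts the N-terminal one, and Loxl2, a relative of Lox, had log2 fold changes of 0.30, 0.22 and 0.19. Adamts2 missed the threshold without Het replicate 1 (limma adjusted p 0.088), without Nf1-KO replicate 2 (0.092) and with no filter on low values (0.067). Loxl2 did so with any 1 of the 4 libraries left out (0.065 to 0.099) and with no filter (0.063). Without scaling, 14 genes of the 4 partner lists were higher and 12 lower, against 11 and 12 here, and the 23 called here were all called there as well.

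Partners of type IV collagen in the basement membrane were lower where they passed. Of 11 genes, all tested, 7 were lower, 0 higher and 4 did not pass, with a median of -0.23, where 25.4% of all tested genes were lower. Pxdn, the peroxidase that cross-links type IV collagen, was 3.80 and 4.01 RPKM in Het and 2.30 and 2.34 RPKM in Nf1-KO, a log2 fold change of -0.63 (standard error 0.051, limma adjusted p 0.00016). Hspg2 (perlecan) was 15.43 and 15.58 RPKM in Het and 11.48 and 10.65 RPKM in Nf1-KO, a log2 fold change of -0.54. Lamc1, a laminin chain, and Nid2, a nidogen that links laminin to type IV collagen, were at -0.42 and -0.39. Lama2, the laminin chain of the muscle fibre, did not pass (0.03, limma adjusted p 0.65).

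Collagen receptors changed little in size. Of 9 genes 6 were tested, 1 was higher and 3 lower, with a median of -0.03, and 4 calls among 6 genes are few to set beside the 50.3% of all tested genes called. Itga1 and Itgb1, which pair as a collagen-binding integrin, had log2 fold changes of -0.25 and -0.19. Of the discoidin domain receptors, kinases that collagen switches on, Ddr2 was at -0.24 and Ddr1 at 0.19. Ddr2 missed the threshold without Nf1-KO replicate 2 (limma adjusted p 0.07) and Ddr1 without Het replicate 1 (0.053).

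**Figure D4:**
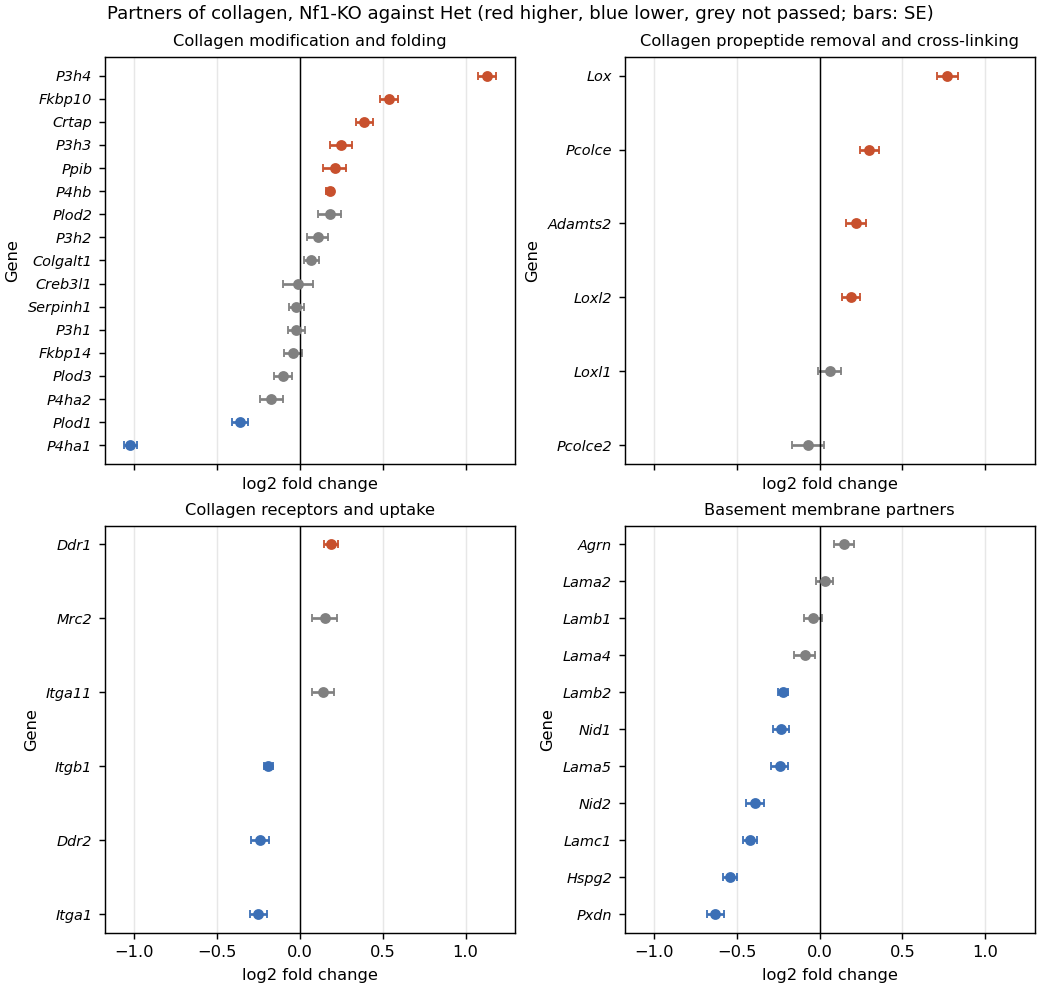
Log2 fold change of Nf1-KO against Het (limma on log2(RPKM + 1)) for the tested genes of 4 lists of collagen partners, with bars of 1 standard error and the colour giving the call. P4ha1 (-1.02) and P3h4 (1.13) lie at opposite ends of the modification list, and no basement membrane partner passed as higher.

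Markers of the cells that could carry these RNAs moved between the groups, and their part in the results was not tested. The counts below stand beside 24.9% of all tested genes higher and 25.4% lower. Calls come from scaled libraries, but the sums are of values as deposited. Without scaling, the median log2 fold change of all tested genes was 0.07 on the log2(RPKM + 1) scale, which understates low genes. The scale factors left out of the sums were 0.969 and 0.967 for Het and 1.03 for each Nf1-KO library. Of 10 fibroblast markers, all listed above 0 and tested, 6 were higher and 1 lower, and their summed level was 178 to 183 RPKM in Het and 213 to 215 RPKM in Nf1-KO. Pdgfra, which marks muscle fibroblasts, was 0.89 and 0.85 against 1.42 and 1.52 RPKM, and Cd34 was 14.57 and 13.88 against 9.57 and 9.45 RPKM. All 6 Schwann cell markers were higher, with a sum of 10.8 RPKM in both Het libraries and 24.4 to 26.3 RPKM in Nf1-KO, but 3 of them reached the filter only through Nf1-KO and had to differ. Of 6 macrophage markers, 4 were tested and 3 were higher. Their sum was 9.55 to 9.77 RPKM in Het and 28.7 to 28.8 RPKM in Nf1-KO, most of it Lyz2, while Adgre1 was listed at 0 or not named. Of 7 endothelial markers, 3 were higher and 2 lower, with a sum of 85.3 to 85.6 and 91.0 to 92.7 RPKM. The median log2 fold change of these 7 in the scaled fit was 0.0. Of 6 pericyte and smooth muscle markers, 2 were higher, 0 lower and 4 did not pass, with sums of 82.6 to 84.6 and 108 RPKM. Most of these sums was Rgs5, at 52.47 and 54.20 RPKM in Het and 70.64 and 71.24 RPKM in Nf1-KO.

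Beside the fibrillar chains, tendon markers moved in both directions, while the cartilage and bone markers that passed were all higher. Of 8 cartilage and bone markers, 4 were tested and 3 were higher, with a sum of 5.35 to 5.38 RPKM in Het and 16.1 to 16.8 RPKM in Nf1-KO. Of these 3, Ibsp and Bglap reached the filter only through Nf1-KO and had to differ. Ibsp (bone sialoprotein) accounted for most of this, at 0.01 and 0.02 RPKM in Het and 8.65 and 9.07 RPKM in Nf1-KO. Sp7, a transcription factor that defines osteoblasts, was listed at 0 in both Het libraries and at 0.13 and 0.16 RPKM in Nf1-KO. The cartilage marker Matn1 was listed at 0 in all 4 libraries or not named. Acan was 0.01 and 0.00 RPKM in Het and 0.09 and 0.13 RPKM in Nf1-KO, under the filter. Runx2 was also under it, at 0.04 and 0.07 against 0.08 and 0.16 RPKM. Sox9 overlapped between the groups, at 0.61 and 0.46 against 0.52 and 0.63 RPKM. Of the 7 markers listed above 0, 6 were higher in Nf1-KO with no overlap and 0 lower. Over all tested genes, 77.3% did not overlap, counting both directions. Of 5 tendon markers, 3 were tested, with Fmod higher and Scx and Thbs4 lower, and a sum of 15.5 to 15.9 RPKM in Het and 12.3 to 12.8 RPKM in Nf1-KO. Of 5 satellite cell markers, 3 were tested, 1 was higher and 1 lower, with sums of 3.02 to 3.30 and 3.63 to 3.77 RPKM, and the higher one, Chrdl2, reached the filter only through Nf1-KO. The 6 muscle fibre markers were present at 31540 to 31710 RPKM in Het and 25400 to 25860 RPKM in Nf1-KO in sum, as the labelled tissue has them, with 5 lower and Myh1 higher.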

How the data were processed

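RNA of tibialis anterior was measured in 4 libraries, 2 per group. Per the submitters' processing notes, STAR 2.4.2a, DESeq2 and the build mm9 were used; the counting, annotation and strandedness are not given in the sources used here. The authors deposited 1 value per gene and library, 34682 rows each with 2 decimals, read from the values as RPKM: the sums are 532146 to 546969, and normalised count per RPKM rose with transcript length (GENCODE M21) with a log-log slope of 0.952. The authors also deposited a comparison table. Per the file headers, it holds a signal (the mean normalised count), a log2 fold change with its standard error, a test score, and a p-value before and after adjustment.

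Rows with a number for a name (33) were left out, and of rows marked as copies (1781) the highest per name was kept. No collagen row was a copy. Libraries were scaled to their geometric mean with trimmed log ratios (trimming 30% by ratio and 5% by abundance at each end; factors 0.969, 0.967, 1.03 and 1.03). Tests were made with limma 3.58.1 in R 4.3.3, taking log2(RPKM + 1) as the response and a trend in the prior variance, and were two-sided and Benjamini-Hochberg adjusted over all 10690 tested genes, after a check on simulated data. Fold changes on this scale understate the change of low genes. Levels and ratios are of values as deposited. Depth was estimated from the steps of low values in genes with transcripts under 400 bases. A value listed at 0 may be a failed estimate. Exons of Col3a1, Col5a1, Col4a1, Col4a2, Col15a1, Col20a1 and Col22a1 overlap those of other genes in GENCODE M21.

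All tested chains were named, and of each partner list up to 4 called genes with the largest change; Serpinh1, Lama2 and the marker genes named were added after their values were seen. The chains and lists were chosen with earlier results of these data known. Alternatives were another pseudocount, filters, no scaling, no trend, a replicate block, summed copies and leaving out each library.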

Additional observations from a re-analysis of the deposited data

How the results depend on the processing

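Of 534 values under 12 alternative settings and 2 other ways of taking the fibrillar share, 499 kept direction and side of the threshold or stayed within their bounds. The bounds for counts were wide: 23 called partner genes becoming 19 with no filter on low values was taken as kept. A gene not tested under a setting, such as Col12a1 with 1 RPKM in every library, gave no value there. The 17 called chains became 9 with 1 RPKM in every library (13 chains tested), where the other chains went from 7 to 1, because low chains were no longer tested. Leaving out each library in turn gave 11 to 17 called chains, 2 to 7 other chains, 5 to 6 fibrillar and 4 basement membrane chains; without Nf1-KO replicate 1 there were 11 and without Nf1-KO replicate 2 there were 12. In both, the 5 chains that reached the filter only through Nf1-KO were not tested and Col8a1 was lost, and in the second Col5a3 was gained as lower. The partner genes called ranged from 19 to 21, and the fibrillar share difference from 24.4 to 25.4 points. A filter on the mean over all libraries, chosen after seeing the data, called 15 of 20 chains, 8 higher and 7 lower. The fibrillar share was 24.9 percentage points higher in Nf1-KO, 12.1 without Col1a1 and Col1a2, and 29.6 beside type IV chains alone. Col6a1 turned to 0.01 without scaling, Serpinh1 turned to 0.07 without scaling and ranged from -0.08 to 0.03 with each library left out, and Col14a1 ranged from -0.0071 (without Het replicate 1) to 0.08; the cause was not tested. Without scaling, the median of all tested genes was 0.07.

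Libraries with the same number did not deviate together, so the numbers were not taken as a pairing (correlation -0.0179 over tested genes). In a fit blocked by replicate number, 17 chains were called, as without it, and 22 in place of 23 partner genes; Nf1 had an adjusted p of 0.056. At these depths chains under 0.5 RPKM were not tested, and their low values are rounded to 2 decimals.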
